A study of Musca domestica with 6 samples.

Results

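The housefly, Musca domestica, grows through a series of larval instars, and at each moult the epidermis builds a new chitin and protein cuticle under the control of ecdysteroid hormone. The 6 libraries of whole larvae carry the numbers 1, 2 and 3 in their titles, and the 2 libraries numbered 3 are compared here with the 4 numbered 1 or 2. The 2 were selected on the first principal component of these same counts, and so chosen by measured values of all genes: it holds 49.3% of the variance and puts them at 48.2 and 40.2 against -33.5 to -3.04 for the other 4. All differences between number 3 and the rest are therefore given as a description of these libraries, with no test, and support nothing about a cause. The labels give the numbers no meaning, and neither the age of the larvae within the instar nor a date or batch is given in the sources used here.

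In Drosophila, a well-studied fly, a pulse of 20-hydroxyecdysone binds the ecdysone receptor and its partner ultraspiracle and switches on early genes such as the broad complex, E74 and E75, which in turn drive moulting and metamorphosis. The fat body of late Drosophila larvae secretes storage proteins into the blood, and fat body protein 1, an ecdysone-dependent gene, encodes the receptor through which they are taken up again. Cuticle protein genes are switched on and off in stage-specific sets, so the make-up of the cuticle transcripts changes as an instar proceeds. These statements are background from Drosophila and not results on the housefly.

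The 3 dsMdCht9 libraries came from larvae of the instar numbered 2 given an injection of dsRNA, the trigger of RNA interference, matching the chitinase gene MdCht9. The 3 dsGFP libraries came from larvae given dsRNA matching green fluorescent protein, a sequence foreign to the fly. Whole bodies were taken 24 h after injection, and 3 µg of RNA entered each library. No strain, sex or uninjected group is given, and every library comes from injected larvae, so nothing here describes a larva without injection. No description used here names MdCht9, and the targeted transcript was not analysed here. Whether a group's libraries are independent sets of larvae is not labelled, so p-values below reflect only the spread among these 6 samples, some of which may be technical. One phrase of the series description speaks of retinal profiles, while the sample labels give the whole body, which was followed.

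Each library held between 12876941 and 15439421 counted reads over 14227 genes, and 10644 genes had enough reads to be compared. Levels are CPM, a gene's reads scaled to a common library size adjusted by the trimmed mean of M-values (TMM), and differences are fitted log2 values, number 3 minus numbers 1 and 2 with the injected dsRNA as a covariate, with a standard error. A gene is called higher or lower when both number 3 libraries lie outside the range of all 4 others and the fitted difference is at least 2-fold. Where 6 levels are listed, they run dsMdCht9-3 and dsGFP-3, then dsMdCht9-1, dsMdCht9-2, dsGFP-1 and dsGFP-2. The reads were counted in whole larvae, so fewer cells of a type and less RNA per cell cannot be told apart in any of these values.

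By this description 332 genes (3.12% of those tested) were higher and 424 (3.98%) were lower in the number 3 libraries. Without the 2-fold limit, both number 3 libraries lay above the other 4 in 1919 genes (18.0%) and below them in 1769 (16.6%). The last gene inside the limit on the high side was LOC101897386, an ATP-binding cassette transporter, at a log2 difference of 1.004, and the first outside was LOC101887525 at 0.998. On the low side the last inside was LOC101891574 at -1.008 and the first outside LOC101900615 at -0.999. Of the called genes, 13 higher and 6 lower were long non-coding RNAs, and 73 higher and 109 lower were coding genes with no informative description. Leaving out dsMdCht9-3 leaves 1 library numbered 3 to meet the range limit, and the counts were then 533 higher and 652 lower.

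The dsMdCht9 and dsGFP groups share no library, and each has 1 library numbered 3. The difference between number 3 and the mean of numbers 1 and 2 had the same sign in dsMdCht9 and dsGFP larvae for 7754 genes (72.8%), with a correlation of 0.65 across genes. That likeness is what singled the libraries out, and genes are not independent replicates. The difference between numbers 1 and 2 correlated across genes at only 0.087 between dsMdCht9 and dsGFP. The root mean square log2 difference between the 2 number 3 libraries was 0.521, against 0.703 to 0.887 over the 8 pairs of a number 3 library with another and 0.506 to 0.642 over the 6 pairs of the others.

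**Figure D1:**
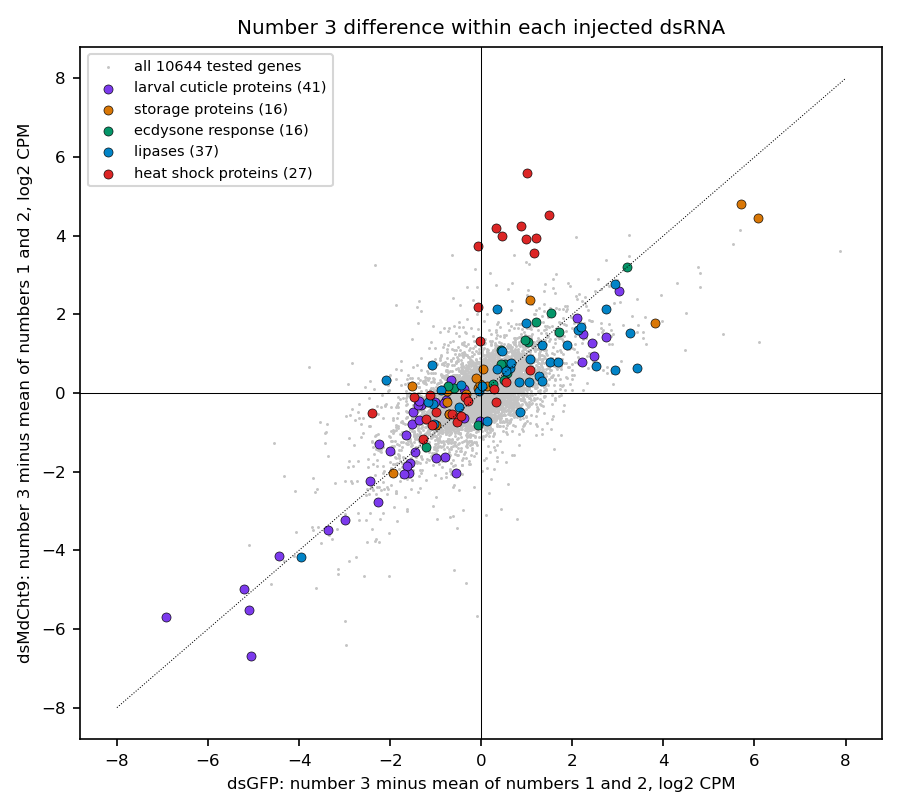
Each point is a gene, placed by its log2 CPM difference between number 3 and the mean of numbers 1 and 2 in dsGFP larvae (x axis) and in dsMdCht9 larvae (y axis), with 5 gene lists in colour and the dotted line marking equal differences. Fat-body protein 1-like genes lie far to the upper right, and a set of heat shock genes lies high on the dsMdCht9 axis alone. The tested larval cuticle protein 5-like genes of scaffold NW_004755053.1 lie far to the lower left. Others with that description, on scaffold NW_004764712.1, lie on both sides of 0.

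The 4 other libraries were not alike. dsMdCht9-1 stood apart on the second component, which holds 16.3% of the variance, at 39.8 against -17.8 to 2.55 for the remaining 5. Of the 4 it was the nearest to the number 3 libraries in 133 of the 332 higher genes and in 223 of the 424 lower genes. dsGFP-1 was nearest in 74 and 47, dsGFP-2 in 78 and 54, and dsMdCht9-2 in 47 and 100. Leaving this library out gave 483 higher and 562 lower genes. Without any library numbered 1 or 2, fewer libraries set the range, which loosens the limit. The counts were 403 and 488 without dsMdCht9-2, 386 and 428 without dsGFP-1, and 424 and 463 without dsGFP-2. The rise therefore does not measure the part of dsMdCht9-1 in the results, which was not tested otherwise.

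The 2 cuticle protein lists are taken first. Over all tested genes 3.12% were higher and 3.98% lower, and every list count below is to be read beside these shares. Larval cuticle proteins, the chitin-binding structural proteins of the soft larval cuticle, had 41 tested members of 70 in the table, of which 6 were higher and 18 lower. The median log2 difference was -1.20 beside 0.012 over all tested genes. The other 29 had too few reads. LOC101888740, a larval cuticle protein 5-like gene, was at 8.26 and 12.6 CPM in the number 3 libraries, against 368, 397, 450.3 and 426 CPM in the other 4, a log2 difference of -5.32 ± 0.22. The 4 other libraries lay close together, and the sets did not overlap. LOC101888394, with the same description, was at 3.61 and 9.42 CPM against 291, 509, 311 and 329 CPM (-5.81 ± 0.55), and LOC101888227 at 0.958 and 0.380 CPM against 38.9, 81.3, 55.3 and 72.0 CPM (-6.55 ± 0.55). In all 3 the number 3 libraries lay more than an order of magnitude below the lowest of the other 4.

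Those 3 genes are neighbours. The scaffold NW_004755053.1 carries 10 genes of the list between positions 2735 and 70669 with no other annotated gene between them, and the table names no assembly. Of the 10, 7 had enough reads, and all 7 were lower in the number 3 libraries. From the left, they are 4 larval cuticle protein 5-like genes between 17747 and 34766, with log2 differences of -6.55, -5.81, -6.52 and -5.32, and 3 larval cuticle protein 8 or 8-like genes between 38445 and 70669, at -2.58, -1.996 and -3.65. LOC101888561 and the 3 protein 8 genes were named after their values were seen. LOC101888561 was at 0.0737 and 0.0632 CPM in the number 3 libraries, which is about 1 read each, so its log2 difference depends on the fit at low counts.

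A second row of cuticle genes held both directions. The scaffold NW_004764712.1 carries 12 genes of the list between 153215 and 226496, again with no other gene between, and 11 had enough reads. The 2 at the left end, LOC101899676 and LOC101898309, had log2 differences of -1.88 and -1.58. The next 4, between 170943 and 182414, were all positive at 1.67, 1.41, 1.91 and 1.84, and 3 of them met the limits for higher. The 5 tested genes to the right were negative again, from -1.20 to -0.49. These neighbours were singled out after their values were seen. LOC101900191 was at 1245 and 1624 CPM against 713, 375, 379 and 235 CPM, and LOC101899676 at 657 and 973 CPM against 982, 3449.8, 4026 and 3763 CPM. For both of them dsMdCht9-1 was the nearest of the other 4 libraries to the number 3 range. Members of these rows are near-identical in name, and reads shared between copies could be assigned to either, so values gene by gene are uncertain.

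**Figure D2:**
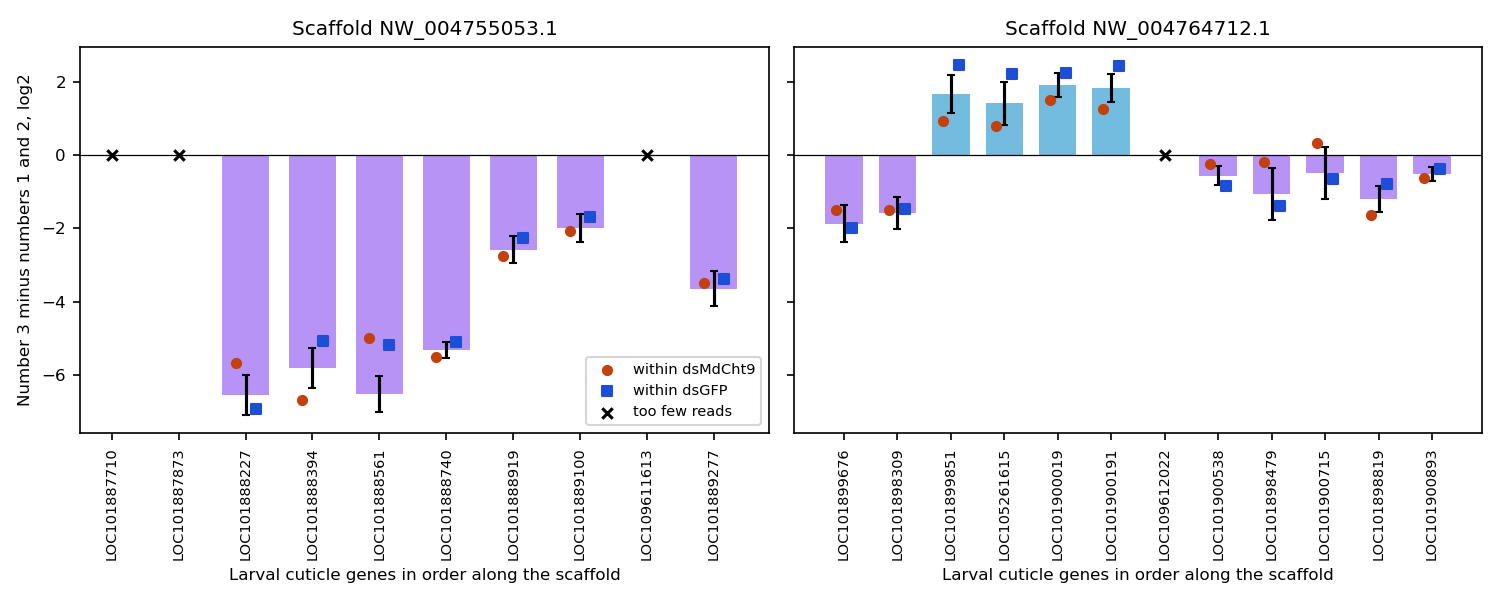
Bars give the fitted log2 difference, number 3 minus numbers 1 and 2, with its standard error for each larval cuticle gene in its order along 2 scaffolds; circles and squares give the difference within dsMdCht9 and within dsGFP, and crosses mark genes with too few reads. All 7 tested genes of the left row lie below 0, and the right row holds 4 positive neighbours between negative ones.

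The other higher larval cuticle genes lay elsewhere. LOC105262293 (larval cuticle protein 9-like) was at 2698 and 4009 CPM in the number 3 libraries, against 1396, 141, 959 and 250.1 CPM in the others (2.29 ± 0.90). LOC101894113, a larval cuticle protein LCP-30 gene, was at 422 and 461 CPM against 121, 104, 81.0 and 141 CPM (1.98 ± 0.22), and LOC101895591 (larval cuticle protein 8) at 244 and 397 CPM against 137, 59.7, 72.8 and 48.1 CPM (2.07 ± 0.45). All 3 were named after their values were seen. The summed level of the whole list did not separate the sets, at 20535 and 23803 CPM in the number 3 libraries, against 18146, 35924, 45756 and 37074 CPM in the others. dsMdCht9-1 had the lowest sum of all 6 libraries, below both number 3 libraries. LOC101896890 (larval cuticle protein 2-like), the member with the highest mean CPM, overlapped at 3956 and 3453 CPM against 3027, 7789, 9784 and 7662 CPM, also with dsMdCht9-1 the lowest.

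The list of pupal, adult and other cuticle proteins had 25 tested members of 72, of which 1 was higher and 7 lower. The median was -0.95. LOC101895804 (pupal cuticle protein 36a-like) was at 23.2 and 44.8 CPM in the number 3 libraries, against 101, 178, 476 and 673 CPM (-3.11 ± 0.41). LOC101888300, an endocuticle structural glycoprotein, was at 32.4 and 59.1 CPM against 127, 187, 582 and 379 CPM (-2.64 ± 0.32), and LOC101901078 (cuticle protein 16.5-like) at 48.0 and 139 CPM against 155, 414, 739.8 and 459 CPM (-2.33 ± 0.47). In each of these genes the 2 dsGFP libraries numbered 1 and 2 were the highest and the 2 number 3 libraries the lowest.

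Of 10 tested genes of chitin synthesis and modification, 0 were higher and 4 lower, and 1, LOC101898706, lay above the other libraries by less than 2-fold (0.50, named after its values were seen). The median was -0.81, which became -1.38 without dsMdCht9-3 and -0.34 without dsGFP-3. LOC101890766, a UDP-N-acetylhexosamine pyrophosphorylase, the enzyme that makes the activated sugar from which chitin is polymerised, was at 34.4 and 54.1 CPM in the number 3 libraries, against 71.4, 90.2, 192 and 133 CPM (-1.41 ± 0.21). LOC101895796, matched to a chitin synthase in the deposited annotation, was at 46.4 and 34.2 CPM against 57.0, 113, 107 and 102 CPM (-1.23 ± 0.32). LOC101892841, which carries a polysaccharide deacetylase domain and is otherwise uncharacterized, was at 133 and 156 CPM against 593, 825, 923 and 758 CPM (-2.42 ± 0.22). These 3 were named by a rule that takes only genes without overlap between the sets.

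Chitinases and chitinase-like proteins, which degrade or bind chitin, showed no common direction, with 1 of 27 higher, 1 lower and a median of 0.092. Those counts are close to the shares over all tested genes, 3.12% higher and 3.98% lower. The lower one, LOC101889312 (probable chitinase 3), was at 27.1 and 37.2 CPM in the number 3 libraries, against 52.0, 106, 133 and 121 CPM (-1.66 ± 0.30). The higher one, LOC101889717, is an imaginal disc growth factor 4 gene of the same fold at 159.6 and 185 CPM against 98.9, 67.6, 50.4 and 112 CPM (1.06 ± 0.32). Tanning enzymes, which harden and darken the cuticle, had 2 of 20 higher and 1 lower, with a median of 0.11 that changed sign to -0.35 without dsMdCht9-3. LOC101897883, a yellow gene of the pigmentation family, was at 57.7 and 79.6 CPM against 29.4, 23.5, 18.3 and 20.6 CPM (1.60 ± 0.22).

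**Figure D3:**
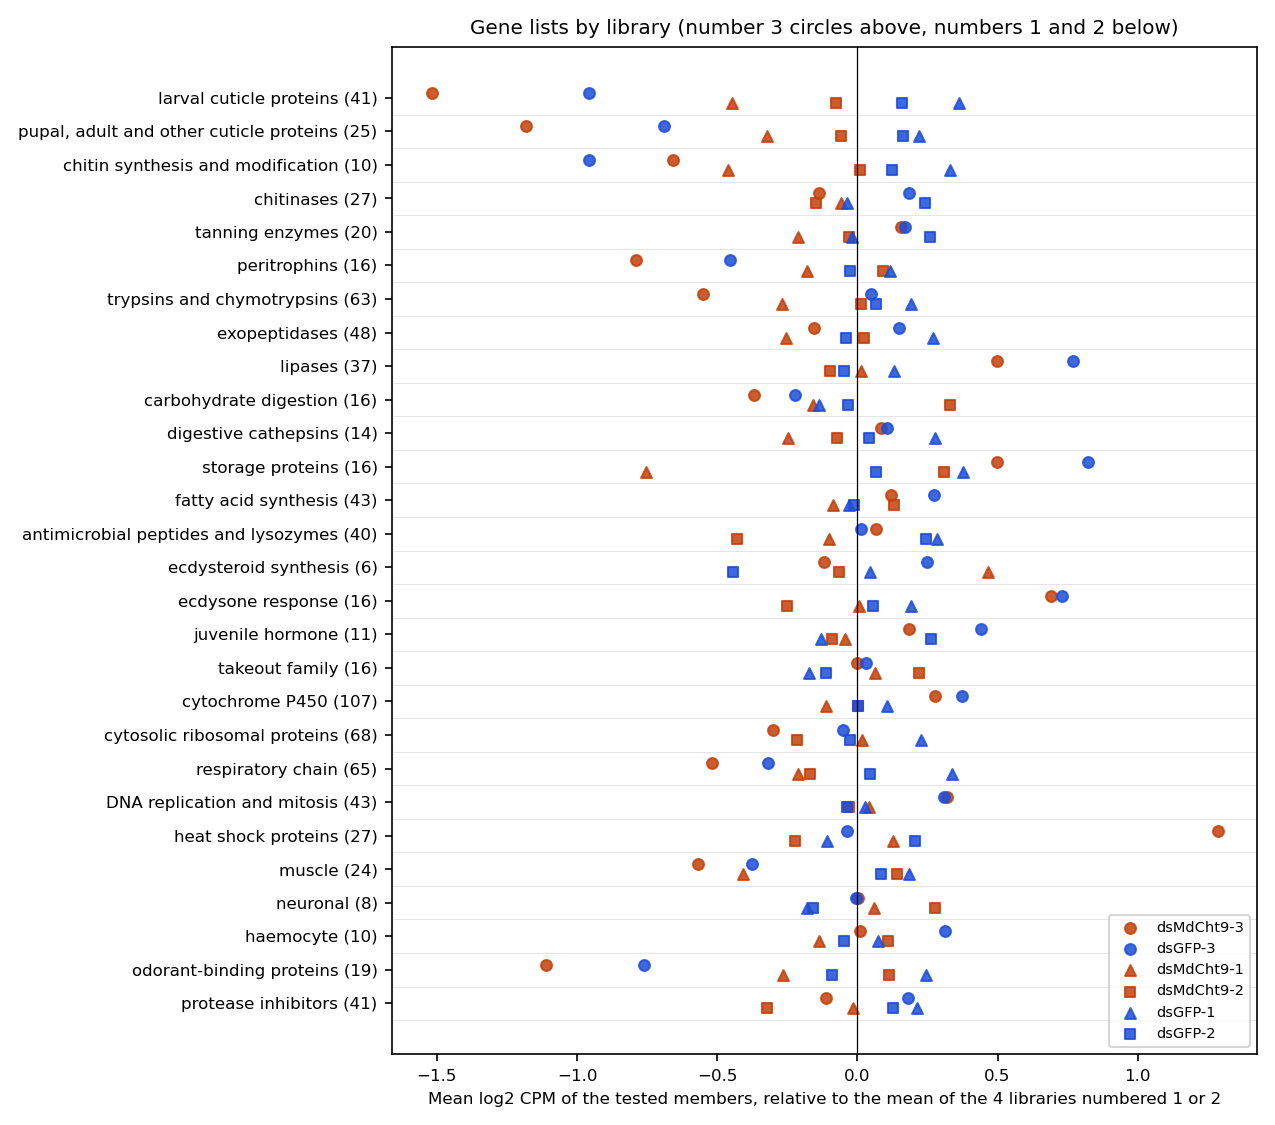
Mean log2 CPM over the tested members of each gene list (number of members in brackets), relative to the mean of the 4 libraries numbered 1 or 2; circles are the number 3 libraries and sit above the triangles and squares of numbers 1 and 2. Both circles lie left of every other symbol for the cuticle protein, chitin synthesis, peritrophin and odorant-binding lists. They lie right of every other symbol for lipases, storage proteins, ecdysone response, cytochrome P450 and DNA replication. The storage protein mean includes fat-body protein 1-like genes with log2 differences of 5.31, 5.26 and 2.76, while the median of that list was 0.034.

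Of 16 tested ecdysone response genes, 6 were higher and 1 lower, and 12 had both number 3 libraries above the other 4. Over all tested genes 3.12% were higher and 3.98% lower, and 18.0% had both above. The median of the list was 0.61, between 0.52 and 0.72 when any 1 library was left out. The ecdysone receptor gene LOC101888839 was at 109 and 90.4 CPM in the number 3 libraries, against 41.1, 48.0, 43.8 and 45.4 CPM (1.16 ± 0.14), and the ecdysone receptor-like gene LOC105262291 at 27.0 and 24.2 CPM against 10.1, 11.0, 11.4 and 13.3 CPM (1.17 ± 0.16). The 4 other libraries lay close together in both. These entries lie on different scaffolds and may be parts of the same gene, so their values may not be independent. The partner ultraspiracle, LOC101887949, differed by only 0.42 ± 0.13, at 43.9 and 51.0 CPM against 34.7, 34.7, 34.0 and 38.2 CPM.

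The broad complex, whose transcription factors act early in the ecdysone response in Drosophila, had 3 tested genes, of which 2 were higher. LOC101892866, a broad-complex isoform 6-like gene, was at 154 and 156 CPM in the number 3 libraries, against 43.3, 43.7, 73.6 and 62.6 CPM (1.52 ± 0.17). LOC101892525, with the same description, was at 33.8 and 33.7 CPM against 8.39, 8.03, 14.1 and 9.41 CPM (1.79 ± 0.20). Within the other 4 libraries both dsGFP libraries were above both dsMdCht9 libraries, and all 4 were below the number 3 range. The remaining broad gene, LOC101896582, was barely read, at 2.29 and 1.90 CPM against 1.75, 0.545, 1.80 and 1.02 CPM. All broad entries lie on different scaffolds and may be parts of the same gene, so they may not be independent.

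Other members of the response spanned a range of differences. E74, LOC101894345, was at 76.4 and 82.8 CPM in the number 3 libraries, against 47.3, 60.5, 59.3 and 53.0 CPM (0.53 ± 0.15), and E75, LOC101896320, at 34.4 and 34.0 CPM against 26.0, 32.8, 31.4 and 25.6 CPM (0.24 ± 0.16). The nuclear receptors E78C (LOC101895726), HR78 (LOC101891342) and FTZ-F1 beta (LOC101900627) differed by 1.65 ± 0.31, 0.58 ± 0.15 and 0.64 ± 0.17. FTZ-F1 itself, LOC101899172, which in Drosophila marks the fall of the hormone pulse, overlapped at 5.23 and 2.66 CPM against 4.32, 4.99, 4.04 and 4.98 CPM. HR38, LOC101898949, was the lower member, at 0.664 and 0.949 CPM against 1.502, 2.49, 2.38 and 2.39 CPM (-1.43 ± 0.39). LOC101893225, described as 20-hydroxyecdysone protein, was at 6.78 and 7.97 CPM against 1.75, 0.156, 1.01 and 0.545 CPM (3.05 ± 0.61), low levels that rest on few reads.

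Genes of ecdysteroid synthesis had no common direction. LOC101896979, ecdysone 20-monooxygenase, which converts ecdysone to its active form in tissues outside the gland, was at 53.9 and 65.1 CPM in the number 3 libraries, against 44.9, 27.0, 19.9 and 28.2 CPM (1.03 ± 0.29), and dsMdCht9-1 was again the nearest of the 4. The 4 P450 genes of the gland pathway, LOC101901255, LOC101900639, LOC101901025 and LOC101888518, overlapped between the sets, at -0.64, -0.10, 0.08 and 0.43. Torso, LOC101888248, the receptor through which the brain signals to the gland in Drosophila, was at 0.811 and 1.52 CPM against 1.63, 2.73, 1.66 and 1.64 CPM (-0.69 ± 0.44). Both number 3 libraries lay below the other 4, dsGFP-3 by little. The gland is a small part of a whole larva, and these transcripts were near the lower end of what was counted. In the juvenile hormone list 1 of 11 was higher, with a median of 0.30 that became 0.51 without dsGFP-1. Its transcription factor Krueppel homolog 1, LOC101897485, was at 18.0 and 17.8 CPM against 12.3, 11.5, 14.1 and 11.5 CPM (0.54 ± 0.16). The 1 tested gene of the moulting neuropeptides, cardioactive peptide LOC101890384, overlapped at 2.21 and 1.08 CPM against 0.689, 1.95, 2.81 and 1.64 CPM.

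The storage protein list held genes of unlike behaviour. All 3 tested fat-body protein 1-like genes were higher. LOC101892591 was at 774 and 1688 CPM in the number 3 libraries, against 30.1, 41.8, 19.4 and 31.9 CPM (5.31 ± 0.43), a fitted 39.6-fold difference. LOC101888507, described as partial, was at 448 and 654 CPM against 12.2, 20.3, 10.5 and 14.9 CPM (5.26 ± 0.31). LOC101895449 was at 5082 and 6347 CPM against 2175, 989.8, 777 and 259.5 CPM (2.76 ± 0.64), with dsMdCht9-1 the nearest of the other 4. LOC101892591 and LOC101888507 each begin at position 3929 of a different scaffold. They may be copies that share reads, so their values are uncertain and not independent.

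The arylphorins and larval serum proteins that are taken up from the blood had no common direction. LOC101901680, an arylphorin A4-like gene, was at 30384 and 21747 CPM in the number 3 libraries, against 22052, 39094, 37818 and 34985 CPM, and LOC101892543, a larval serum protein 2-like gene, at 7012 and 6348 CPM against 4333, 8935, 5037 and 6696 CPM (named after its values were seen). Both overlapped, as did each of the 9 tested arylphorins. Of the 2 tested larval serum protein 1 beta genes, LOC101893407 was lower at 14.5 and 41.7 CPM against 78.9, 45.3, 133 and 195 CPM (-2.03 ± 0.29), and LOC101891177 was higher at 264 and 310.1 CPM against 17.6, 145, 169.6 and 129 CPM (1.39 ± 0.71), with dsMdCht9-1 by far the lowest. Both were named after their values were seen. Over the list 4 of 16 were higher and 1 lower, and the median was 0.034, which became -0.24 without dsMdCht9-1. Apolipophorin, LOC101887937, the blood lipid carrier, was at 6204 and 5604 CPM against 3871, 5583, 5224 and 5106 CPM (0.26 ± 0.21).

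Enzymes that make and modify fatty acids, in fat body and oenocytes among other cells, had 5 of 43 higher and 3 lower with a median of -0.10. The 5 higher genes were 2 elongases and 3 fatty acyl-CoA reductases, which lengthen fatty acids or reduce them to alcohols. LOC101889411, a reductase, was at 37.3 and 66.4 CPM in the number 3 libraries, against 13.8, 1.95, 3.60 and 2.93 CPM (3.34 ± 0.76), LOC101889237 at 344 and 277 CPM against 138, 74.6, 29.3 and 52.8 CPM (2.25 ± 0.38), and the elongase LOC101889844 at 798 and 724 CPM against 206, 146, 176 and 229 CPM (2.01 ± 0.20). These were named by the rule that takes only genes without overlap. All 3 higher reductases lie on scaffold NW_004764906.1 between 695577 and 771889. There LOC101889237 ends at 764897 and LOC101889411 begins at 764203, so they may share reads and not be independent. Most other tested reductases overlapped between the sets. Among 40 antimicrobial peptides and lysozymes, 2 were higher and 3 lower, with a median of 0.042. Over all tested genes the shares were 3.12% higher and 3.98% lower. The takeout family, carriers of small lipids, had 2 of 16 higher and 2 lower, and protease inhibitors 4 of 41 higher and 2 lower.

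**Figure D4:**
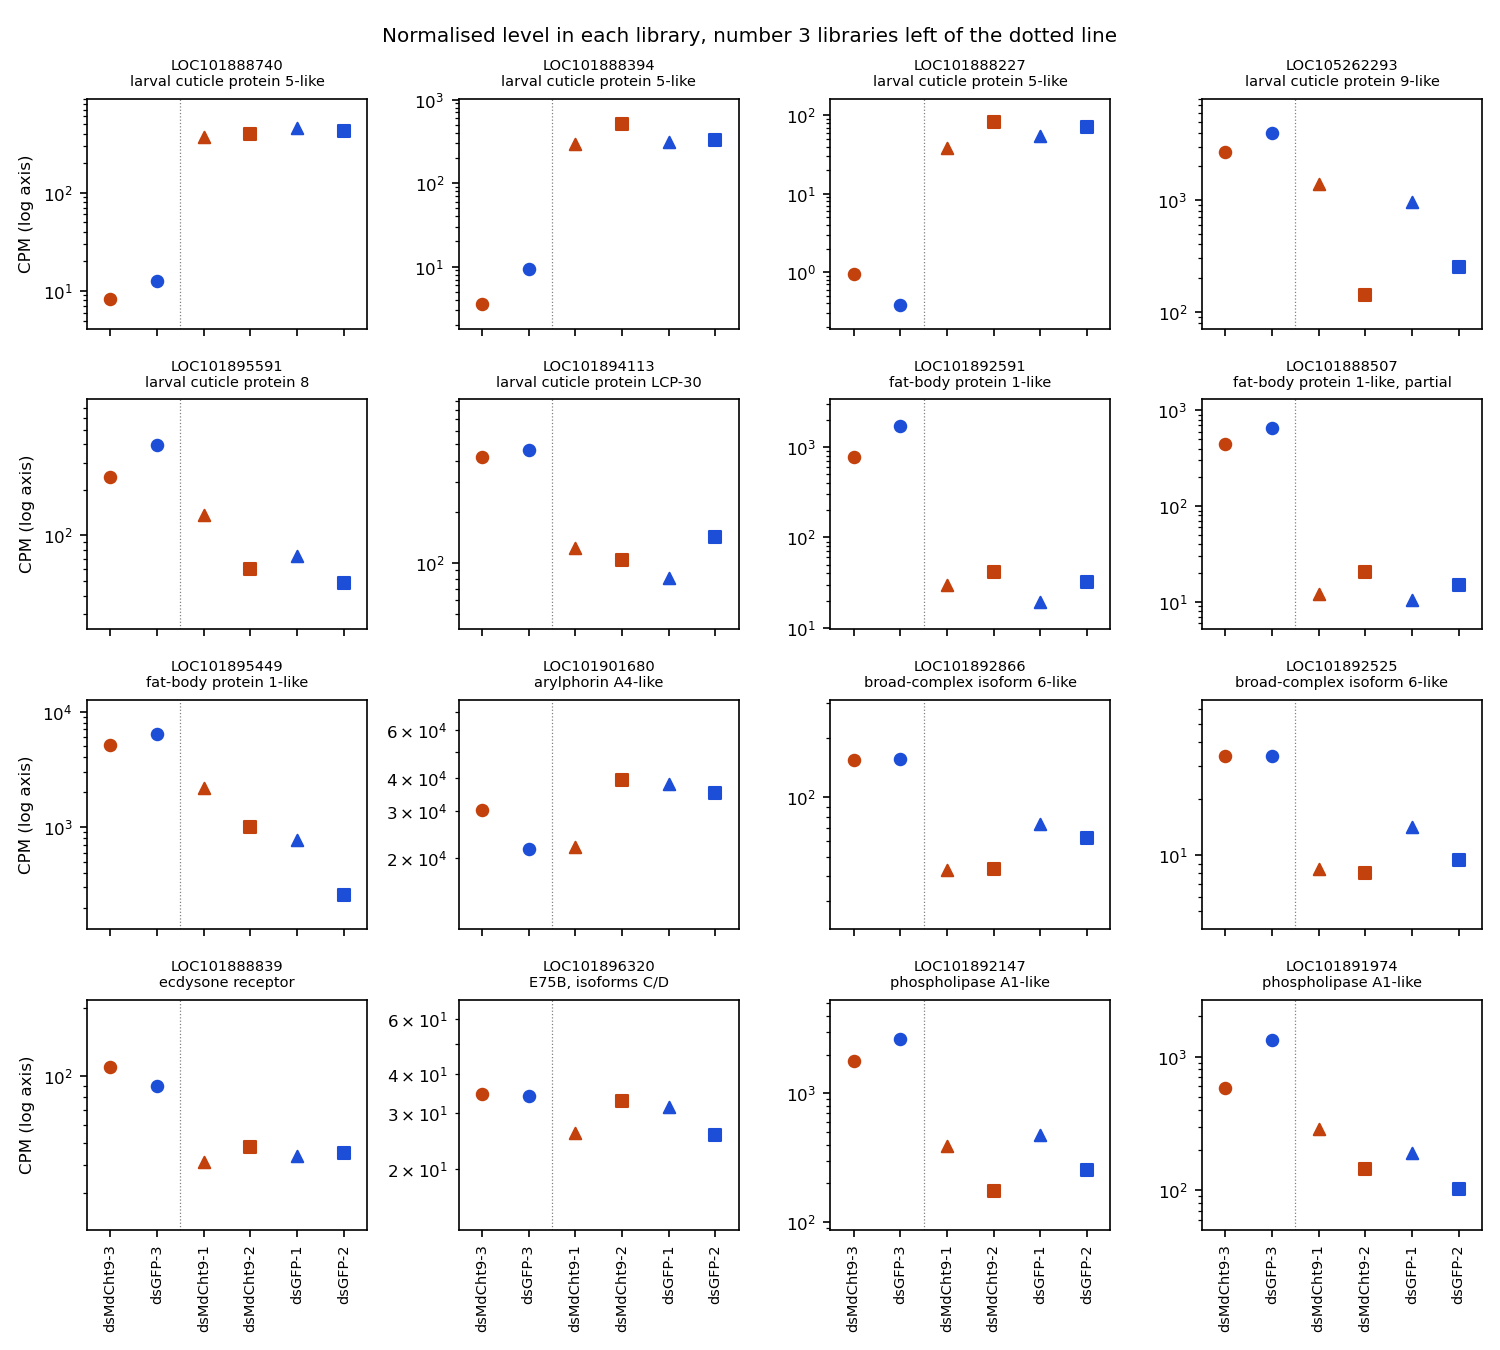
CPM on a log axis in each library for 16 genes, with the 2 number 3 libraries left of the dotted line and the other 4 right of it. The larval cuticle protein 5-like genes shown lie more than an order of magnitude lower left of the line, and the fat-body protein 1-like genes lie higher there. The arylphorin panel overlaps, and the number 3 points of the E75B panel lie just above the rest.

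Lists grouped here with the gut, built by gene description, differed in both directions. The lipase list includes phospholipases, and whole-larva counts do not place its members in the gut. Lipases had 11 of 37 higher and 2 lower, with a median of 0.69. Over all tested genes 3.12% were higher and 3.98% lower. LOC101892147, a phospholipase A1-like gene, was at 1802 and 2662 CPM in the number 3 libraries, against 394, 175, 477 and 253 CPM (2.77 ± 0.37), and LOC101891974 of the same description at 581 and 1324 CPM against 287, 144, 189 and 102 CPM (2.40 ± 0.51). LOC101889460, a phospholipase A2, was at 44.5 and 57.2 CPM against 17.0, 5.77, 8.65 and 8.18 CPM (2.37 ± 0.40). Having both number 3 libraries outside the rest was part of the rule that named these genes. In each, dsGFP-3 was the highest. LOC101892147 and LOC101891974 lie on scaffold NW_004764706.1 between positions 101227 and 152163. The higher genes LOC101892662, LOC101893010, LOC101893191 and LOC101891801 lie there too, and were named after their values were seen. Reads shared between like-named copies could be assigned to either, so these genes may not be independent.

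Carbohydrate digestion had 3 of 16 lower and 0 higher, and all 3 were maltases, which split malto-sugars. LOC101895383, maltase A3, was at 337 and 272 CPM in the number 3 libraries, against 581, 1309.6, 497 and 1098 CPM (-1.52 ± 0.45). LOC101895561, maltase A2, differed by -1.80 ± 0.46 and LOC101895212, maltase A3, by -1.46 ± 0.48. These 3 lie on scaffold NW_004765578.1 between 7165 and 20889, so they may not be independent. The other tested maltases, LOC101898798, LOC101899510 and LOC101899666, overlapped between the sets at -0.32, -0.12 and 0.84. They were named after their values were seen. The amylase LOC101900389, which splits starch, was at 2125 and 2214 CPM against 2349.7, 4583, 2458 and 2747 CPM (-0.46 ± 0.29), with dsMdCht9-1 close above the number 3 range.

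Trypsins and chymotrypsins, the main digestive serine proteases, had 9 of 63 lower and 3 higher with a median of -0.13. LOC101898289 (trypsin alpha-3-like) was at 1.11 and 11.8 CPM in the number 3 libraries, against 18.2, 53.8, 56.5 and 88.8 CPM (-3.42 ± 0.74), LOC101897257 at 3.24 and 9.99 CPM against 24.7, 80.3, 33.7 and 74.9 CPM (-3.10 ± 0.72), and LOC101901761 (trypsin-2-like) at 3.83 and 15.9 CPM against 33.2, 43.4, 49.0 and 67.2 CPM (-2.47 ± 0.38). In all 3, dsMdCht9-3 was lower than dsGFP-3. Exopeptidases, which trim single residues from peptides, had 3 of 48 higher and 4 lower. The aminopeptidase LOC101901296 was at 137 and 188 CPM against 42.2, 26.3, 7.86 and 8.39 CPM (3.41 ± 0.57), and the zinc carboxypeptidase LOC101898951 at 391 and 389.9 CPM against 93.8, 91.5, 176 and 66.1 CPM (1.89 ± 0.36). Digestive cathepsins and aspartic proteases had 1 of 14 higher and 0 lower with a median of 0.17.

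Peritrophins, the chitin-binding proteins of the membrane that lines the gut, had 4 of 16 lower and 0 higher, with a median of -0.57 that became -0.35 without dsMdCht9-3. LOC101889135, peritrophin-1, was at 184 and 154 CPM in the number 3 libraries, against 499.7, 602, 594 and 480.5 CPM (-1.69 ± 0.19). The other 3 lower members were peritrophin-1-like genes, while peritrophin-44 genes such as LOC101888522, at 611 and 562 CPM against 550.0, 567, 543 and 767 CPM, overlapped (named after its values were seen).

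Among the 10 highest and 10 lowest described genes, several belonged to none of the 4 programmes. LOC101892823 and LOC101895399, nas-14-like zinc metalloproteinases of the astacin family, were at 353 and 230.3 and 123 and 71.6 CPM in the number 3 libraries, against 22.2, 20.9, 38.7 and 15.1 CPM and 10.5, 11.3, 14.6 and 3.75 CPM in the others (3.59 ± 0.39 and 3.24 ± 0.45). LOC101899725, a peroxidase, was at 246 and 426 CPM against 70.5, 26.9, 29.5 and 25.7 CPM (3.21 ± 0.49). LOC101893689, described as a neuropeptide Y receptor, was at 261 and 379.9 CPM against 101, 2.03, 5.19 and 10.3 CPM (4.24 ± 1.51), with dsMdCht9-1 far above the other 3. The short-chain dehydrogenase LOC101899636 and a glycine-rich protein, LOC101896583, were also among the 10 highest, at 2.86 ± 0.79 and 3.64 ± 1.45.

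Odorant-binding proteins, small carriers of hydrophobic molecules, had 6 of 19 lower and 1 higher, and 5 of the 6 were of the 56a or 56d kind. These 5 lie on scaffold NW_004766208.1 between 82688 and 116413. Reads shared between like-named copies could be assigned to either, so they may not be independent. The other lower member, LOC101894723, had a mean of only 0.594 CPM and was named after its values were seen. LOC101890852 (56a) was at 12.1 and 24.98 CPM in the number 3 libraries, against 135, 361, 618 and 450.3 CPM (-4.39 ± 0.49), and LOC101891197 (56d) at 5.53 and 5.82 CPM against 64.7, 62.4, 71.2 and 82.6 CPM (-3.62 ± 0.17). The 1 higher member, LOC101887971 (99b-like), was at 3308 and 3335 CPM against 1376, 1326, 2543 and 1571 CPM (1.00 ± 0.24). This list was built by description, and the wider domain family PBP_GOBP had 6 of 34 higher and 9 lower, with a median of -0.15. The remaining lowest genes carry names of structural or unrelated proteins: acanthoscurrin-2-like LOC101897974 (-4.24 ± 0.38), protein D2 LOC101889621 (-4.07 ± 0.40), a proline-rich cell wall protein-like gene LOC101893597 (-3.82 ± 0.49), LOC101891657 (-3.72 ± 0.38) and roadkill-like LOC105261694 (-3.58 ± 0.53).

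Lists of basic cell functions were read in the same way. Over all tested genes, both number 3 libraries lay below the other 4 in 16.6% and above them in 18.0%. Of 65 respiratory chain genes, 48 had both number 3 libraries below the other 4, 0 had them above, and 0 passed the 2-fold limit, with a median of -0.45. ATP synthase beta, LOC101901126, was at 1195 and 1310.0 CPM in the number 3 libraries, against 1393, 1598, 2041 and 1852 CPM (-0.45 ± 0.18). Of 43 DNA replication and mitosis genes, 22 lay above and 1 below, with a median of 0.34. Cyclin B, LOC101895010, was at 13.3 and 15.7 CPM against 9.52, 9.58, 10.7 and 9.07 CPM (0.58 ± 0.16). Cytosolic ribosomal proteins had a median of -0.18 over 68 genes, 0 above and 3 below. Cytochrome P450 genes, which oxidise hormones, lipids and foreign compounds, had 17 of 107 higher and 14 lower, led by LOC101890089 (304a1) at 3.73 ± 0.79 and CYP6A24 at 2.83 ± 0.41.

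Tissue marker lists were read beside these. Of 24 muscle genes 0 were higher and 2 lower, with a median of -0.38, and myosin heavy chain, LOC101893508, was at 5419 and 6614 CPM in the number 3 libraries, against 5219, 12523, 12004 and 10499.7 CPM. dsMdCht9-1 lay with the number 3 libraries and below the other 3. The summed CPM of the muscle list was 32053 and 36314 in the number 3 libraries, against 30838, 51716, 52388 and 48754 in the others. Over the neuronal list the median was 0.020 (8 genes), over the haemocyte list 0.19 (10 genes, 1 higher), and over 3 yolk protein genes 0.58. The part of tissue make-up in the cuticle, fat body and gut differences was not tested.

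Heat shock genes were high in 1 library numbered 3. Of 27 tested genes 4 were higher and 1 lower, and the median of 0.19 became -0.057 without dsMdCht9-3. LOC101898687, heat shock protein 22, a small chaperone, was at 37.1 and 2.97 CPM in the number 3 libraries, against 1.19, 0.312, 0.937 and 2.11 CPM. LOC101899033 (heat shock protein 23-like) was at 39.7 and 4.49 CPM against 2.32, 1.09, 1.01 and 2.25 CPM, and the stress-inducible LOC101891430 (heat shock protein 70) at 76.9 and 3.86 CPM against 5.13, 3.19, 2.38 and 3.95 CPM. In these genes dsMdCht9-3 was far above all 5 other libraries, and dsGFP-3 lay much closer to the 4 numbered 1 or 2. The constitutive cognate 4, HSP70, was at 3117 and 3777 CPM against 3080.5, 2753, 3165 and 3044 CPM and overlapped.

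**Figure D5:**
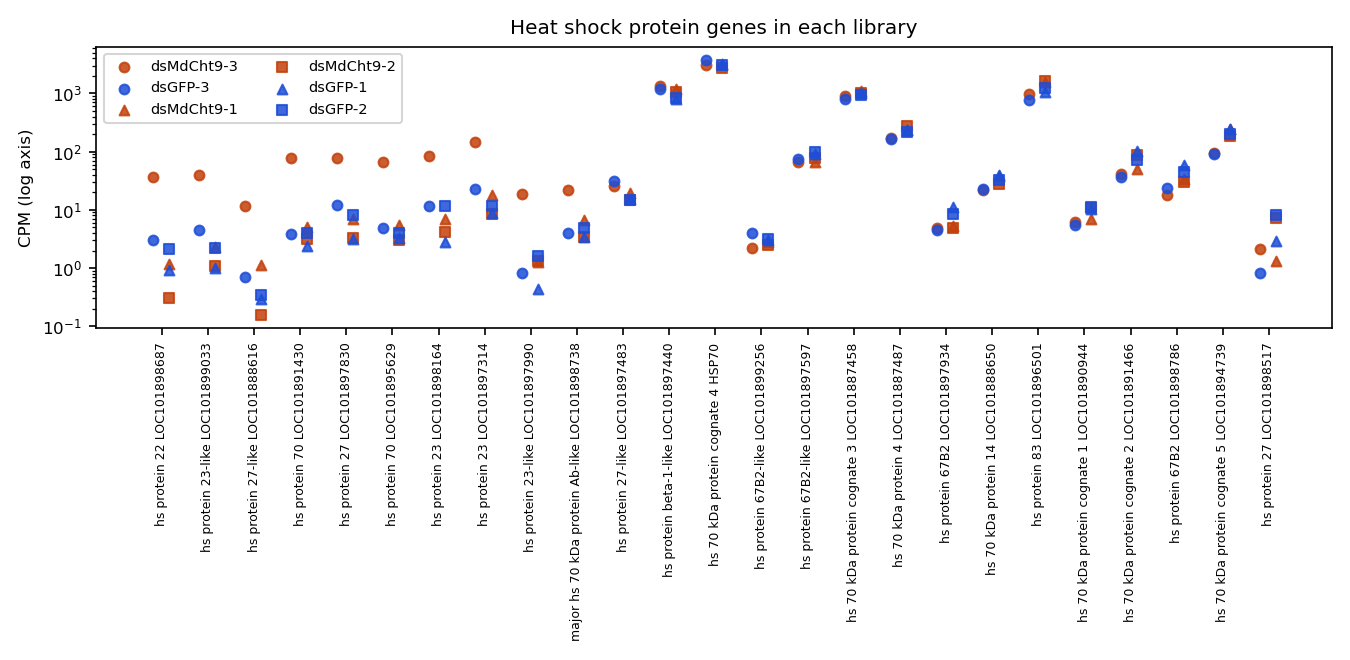
CPM on a log axis for heat shock protein genes with a mean of at least 2 CPM, ordered by their number 3 difference; in each column the number 3 libraries (circles) are left of the other 4. The orange circle of dsMdCht9-3 stands alone above all other symbols in the first 10 columns, and the abundant chaperones in the middle do not separate.

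The interaction of number 3 with the injected RNA asks whether the number 3 difference was the same size in dsMdCht9 and dsGFP larvae. The 2 libraries were chosen because they deviate alike, which by itself favours a small interaction, so few calls here say nothing about how alike the difference is. edgeR's quasi-likelihood test of the interaction called 0 of 10644 genes (0%) at an adjusted p of 0.05, and DESeq2 called 14. In edgeR the unadjusted p was under 0.05 for 265 genes, where uniform p-values would give 532.2. The 3 genes of smallest p in edgeR were LOC101892918 (trypsin alpha-3-like), LOC101893350 (sarcotoxin II-1-like, an antibacterial peptide) and LOC101891430, each with an edgeR adjusted p of 0.9996. LOC101893350 was at 101 and 21.9 CPM in the number 3 libraries, against 15.6, 6.86, 104 and 118 CPM in the others, and its number 3 difference was higher in dsMdCht9 than in dsGFP by 5.50 on the log2 scale. For LOC101891430 that value was 3.91. LOC101892918 had 0 reads in dsMdCht9-3 and 6.76, 6.93, 5.19 and 3.34 CPM in libraries 1 and 2, so its fitted value is no bound. Leaving out dsMdCht9-1 or dsMdCht9-2 gave 1 and 2 calls, and LOC101893350 was called in both, with edgeR adjusted p of 0.0495 and 0.0158. With 1 number 3 library in each injected group, this test rests on the spread among numbers 1 and 2 alone.

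The injected RNA was also tested with number 3 as a term in the model. The common coefficient of variation between libraries beyond counting error was 0.218 with the term and 0.306 without it. The term was chosen from the component of largest variance in these counts, so this drop and the larger number of small p-values with the term follow from the choice, and p-values with the term are too small. edgeR called 0 of 10644 genes (0%) for dsMdCht9 against dsGFP, with a smallest adjusted p of 0.0955. The unadjusted edgeR p was under 0.05 for 344 higher and 444 lower genes, 788 in all. DESeq2 called 86. Without the term edgeR also called 0, the smallest adjusted p was 0.675, and 381 genes had an unadjusted p under 0.05. The 3 genes of smallest p with the term shared the adjusted p of 0.0955 in edgeR. LOC101895721, named for a chromatin remodeller subunit, was at 5.70, 7.87 and 1.70 CPM in dsMdCht9 libraries 1, 2 and 3, against 30.9, 23.0 and 6.64 CPM in dsGFP libraries 1, 2 and 3, a log2 difference of -1.99 ± 0.21. LOC101897553, an extensin-like gene, was at 7.51, 11.8 and 0.737 CPM in dsMdCht9 libraries 1, 2 and 3, against 35.5, 38.0 and 3.98 CPM in dsGFP libraries 1, 2 and 3, a log2 difference of -2.02 ± 0.22. LOC109613889, without a description, was at 5.26, 4.21 and 7.89 CPM in dsMdCht9 libraries 1, 2 and 3, against 1.01, 0.682 and 1.39 CPM in dsGFP libraries 1, 2 and 3, a log2 difference of 2.49 ± 0.28. None of the 3 is counted as changed.

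Whether these larvae were at different points of the instar was not tested. The measured directions in the number 3 libraries were higher broad, ecdysone receptor and fat-body protein 1-like genes, lower levels of 4 of 10 genes of chitin synthesis and modification, and 2 rows of larval cuticle genes of which 1 was lower throughout and the other mixed. The gland P450 genes of ecdysteroid synthesis, the arylphorin LOC101901680 and FTZ-F1 overlapped between the sets. No library here comes from larvae of known age within the instar, so stage within the instar cannot be told apart from whatever else the numbers stand for.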

How the data were processed

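RNA from whole larvae was sequenced in 6 libraries, and the deposited table gives raw read counts per gene, made by the authors with no normalization stated in the table. Per the submitters' processing notes, HISAT2 2.1.0, HTSeq 0.6.0 and StringTie 1.3.2d were used, with no role or order given. Genome assembly, strand setting and treatment of reads shared by copies are unstated in what was available here, so values of near-identical genes and of overlapping or antisense genes are uncertain.

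Samples were grouped by their titles. The members and the 31 gene lists, built by gene description, were chosen with earlier results of these data known, as were the tests. Genes were kept by edgeR's filterByExpr, scaled by TMM and fitted with edgeR 4.0.16 in R 4.3.3 by its quasi-likelihood method with injected dsRNA and number 3 as terms. The number 3 coefficient gives log2 differences with standard errors and no p-value. The interaction and the injected dsRNA were tested two-sided with Benjamini-Hochberg adjustment over all tested genes at 0.05. DESeq2 1.42.0, other scalings, filters, fold limits, the block on numbers and each library left out were the alternatives. The fit was checked on simulated counts. CPM compares a gene between libraries, not genes with each other. Named genes were the 10 highest and 10 lowest described genes with a mean of at least 10 CPM and no overlap, in each list the member of highest mean and up to 3 of largest difference with a mean of at least 5 CPM and no overlap, members of the ecdysone lists, and the 3 genes of smallest p in each test. Genes named outside this rule were chosen after their values were seen.

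Whether the numbers pair the libraries was checked by correlating deviations from group means across genes. The correlations were 0.24 for number 1, 0.39 for number 2 and 0.65 for number 3, and deviations of a group sum to 0, so the last partly sets the others. Crossed numbers gave 0.319 for dsMdCht9-2 with dsGFP-1 and 0.082 for dsMdCht9-1 with dsGFP-2. The annotation-only file was used for no value. No sequence is printed.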

Additional observations from a re-analysis of the deposited data

Results flagged for a closer look

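In 14 genes DESeq2 called a number 3 difference that depended on the injected RNA, while edgeR called none of them, with unadjusted p between 0.00014 and 0.00987 and an edgeR adjusted p of 0.9996 in each. Every value is the number 3 difference in dsMdCht9 minus that in dsGFP, in log2 from DESeq2, and with 1 number 3 library in each injected group it rests on single libraries.

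Stress and defence genes were among those with a higher difference in dsMdCht9. The antibacterial peptide gene LOC101893350 (sarcotoxin II-1-like) had 5.49 and LOC101893852 (sarcotoxin-2A-like) 2.21. The heat shock protein 70 genes LOC101891430 and LOC101895629 had 3.90 and 3.50, and heat shock protein 22, LOC101898687, had 4.62. LOC101893350 was at 101 and 21.9 CPM in dsMdCht9-3 and dsGFP-3, against 15.6, 6.86, 104 and 118 CPM in the others. LOC101893852 was at 525 and 368 CPM against 134, 152, 365 and 579 CPM. In neither was dsMdCht9-3 the highest library, unlike in the heat shock genes. Membrane-bound alkaline phosphatase LOC101897004 had 2.48. It was at 26.8 CPM in both number 3 libraries, against 7.70, 10.4, 60.6 and 41.8 CPM, so this value comes from numbers 1 and 2. LOC101892335 and LOC101901352, both without an informative description, had 3.27 and 3.69.

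Digestive genes were among those with a lower difference in dsMdCht9. The trypsin alpha-3-like gene LOC101899379 had -4.82, with 1.33 and 22.5 CPM in the number 3 libraries, against 24.3, 69.9, 31.4 and 25.8 CPM in dsMdCht9-1, dsMdCht9-2, dsGFP-1 and dsGFP-2. LOC101892918, also trypsin alpha-3-like, had -8.88, a value that is no bound since dsMdCht9-3 had 0 reads. The aminopeptidase LOC101901296 had -2.54, as did LOC101892138, which has no informative description, at -2.54. LOC101888551, without a description, had -2.84 and the dehydrogenase LOC101899636 had -3.22. In LOC101901296 and LOC101899636 both number 3 libraries lay above the other 4 libraries. In LOC101899379, LOC101892138 and LOC101888551 both lay below them, and LOC101892918 overlapped.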

How the results depend on the processing

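Among genes higher in the number 3 libraries, the count was 597 with no filter, 820 at 1.5-fold and 79 at 4-fold, and 386 to 533 with 1 library left out. The count of lower genes was 901 at 1.5-fold, 122 at 4-fold and 428 to 652 with 1 library left out. Other scalings, the stricter filter and DESeq2 kept both counts within 1.5 times. The replicate block gave 341 higher and 416 lower genes against 332 and 424 without it, and 0 calls in both tests, as without it. The interaction test called 14 genes by DESeq2 and 0 to 2 with 1 library left out, and could not be fitted without either number 3 library. The test of injected dsRNA called 9 genes with library size alone, 10 with no filter, 86 by DESeq2 and 0 to 4 with 1 library left out, and 0 without the number 3 term or without both number 3 libraries.

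With no filter the list medians were -1.46 for larval cuticle proteins, -1.30 for other cuticle proteins, 0.54 for lipases, -0.53 for carbohydrate digestion, -0.50 for lipid transport, 0.82 for moulting neuropeptides and 0.48 for juvenile hormone. With at least 5 CPM in 2 libraries they were 1.00 for lipases, 0.47 for ecdysteroid synthesis, 0.10 for juvenile hormone and -0.072 for haemocytes. Library size alone gave -0.83 for other cuticle proteins and 0.28 for lipid transport, and the replicate block -0.80 for other cuticle proteins. With 1 library left out the medians ran from -1.43 to -1.03 for larval cuticle proteins, -1.37 to -0.80 for pupal, adult and other cuticle proteins, -1.38 to -0.34 for chitin synthesis and modification, -0.35 to 0.36 for tanning enzymes, -0.71 to -0.35 for peritrophins, 0.47 to 0.77 for lipases, -0.22 to 0.14 for fatty acid synthesis, -0.45 to 0.48 for ecdysteroid synthesis, -1.03 to 0.75 for moulting neuropeptides and receptors, 0.25 to 0.51 for juvenile hormone, -0.070 to 0.32 for takeout family and -0.031 to 0.32 for haemocyte. The cause of these shifts was not tested. The median changed sign under at least 1 alternative in 13 of the 31 lists, among them storage proteins, tanning enzymes, fatty acid synthesis, ecdysteroid synthesis and heat shock proteins. The 112 genes of the naming rule without overlap kept their sign under every alternative. Their selection for no overlap favours this in advance, so it is no support for the differences.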

Other observations

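Protein domain families were also read across all tested genes, a choice made after their values were seen, with no test. Over all tested genes 3.12% were higher and 3.98% lower, and both number 3 libraries lay below the other 4 in 16.6%. Of 8 genes with the N-terminal domain of prolyl 4-hydroxylase, an enzyme that modifies collagen, 0 were higher and 6 lower in the number 3 libraries, all 8 lay below the other 4 libraries, and the median log2 difference was -1.41. Of 11 acyl-CoA-binding proteins, 0 were higher and 5 lower, with a median of -1.35. Of 6 genes with the DUF243 domain, found in Tweedle cuticle proteins of Drosophila, 5 were lower, with a median of -2.66. Of 70 genes with the chitin-binding domain CBM_14, 0 were higher and 18 lower, with a median of -0.51, and this family includes the peritrophins. Among 14 astacin metalloproteinases 6 were higher and 0 lower, with a median of 0.95.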
